A study of Mus musculus with 3 samples.

Results

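The positions described here are the nucleosome positions with the highest signal on the autosomes of erythroblasts, the nucleated precursors of red cells. They were selected on the summit value, the coverage at the centre of a position as the authors scaled it, and a value of 15 or more made a position a high-summit position. Kept apart by day, 60885 of 3689577 listed autosomal positions met this on day 0 (1.65%, exact Clopper-Pearson 95% interval 1.64 to 1.66%), 44818 of 2967550 on day 1 (1.51%, 1.496 to 1.524%) and 21414 of 4382151 on day 2 (0.489%, 0.482 to 0.495%). Over the 3 lists these were 127117 of 11039278 positions. The cells came from the liver of 6 mouse fetuses, lacked Ter119, which marks the surface of more mature erythroid cells, and were grown in IMDM medium with serum, albumin, insulin and erythropoietin at 2 U/ml. Chromatin was taken on culture days 0, 1 and 2, with 1 library per day, while strain, fetal age and a possible common culture of the days remain not given in the sources used here. No day has a replicate, so every value below describes 1 library, no difference between days was tested, and intervals cover counting error only. Position lists hold no expression, so the labelled cell type was not checked on expression.

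A nucleosome is the unit of chromatin, DNA wound around an octamer of histone proteins. Micrococcal nuclease digests the linker DNA between nucleosomes, and a position whose protected fragments pile up at the same place in many cells gives a high summit. At active genes the nucleosomes just downstream of the start site are well placed and flank a depleted region, and erythroblasts condense their chromatin before the nucleus is expelled. The fuzziness score deposited with each position describes how widely its reads spread around the centre, with low scores for sharp positions.

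The start-site windows that held a high-summit position on all 3 days show what the bases under such positions look like. The windows run from 250 bp before to 50 bp after a RefSeq start site, and 5 of the 6 windows with this property are shown, each by the 250 bases before the start site, from 5′ to 3′ on the strand of the gene (RefSeq, GRCm38.p6, the coordinates of mm10). Capitals mark the bases of the position with the highest summit value, as far as they lie in the printed stretch.
Rhoa: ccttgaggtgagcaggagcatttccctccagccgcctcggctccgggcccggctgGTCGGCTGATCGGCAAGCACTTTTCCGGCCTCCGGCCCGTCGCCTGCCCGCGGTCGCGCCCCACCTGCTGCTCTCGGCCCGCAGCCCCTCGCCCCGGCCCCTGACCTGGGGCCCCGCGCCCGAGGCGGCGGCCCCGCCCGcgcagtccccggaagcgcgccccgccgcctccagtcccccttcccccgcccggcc
Irf1: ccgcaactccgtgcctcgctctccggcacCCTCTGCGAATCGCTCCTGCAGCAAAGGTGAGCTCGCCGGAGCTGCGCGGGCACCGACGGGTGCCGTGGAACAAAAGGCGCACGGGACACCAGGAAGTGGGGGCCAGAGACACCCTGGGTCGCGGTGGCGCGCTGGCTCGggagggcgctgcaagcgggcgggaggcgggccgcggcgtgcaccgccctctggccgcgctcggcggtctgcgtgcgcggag
Csnk1g2: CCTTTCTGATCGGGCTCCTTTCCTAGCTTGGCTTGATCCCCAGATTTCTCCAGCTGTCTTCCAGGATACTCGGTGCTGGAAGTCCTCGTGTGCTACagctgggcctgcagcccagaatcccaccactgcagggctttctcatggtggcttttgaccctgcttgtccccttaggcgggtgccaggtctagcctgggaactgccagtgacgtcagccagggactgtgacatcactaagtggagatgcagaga
Slc16a11: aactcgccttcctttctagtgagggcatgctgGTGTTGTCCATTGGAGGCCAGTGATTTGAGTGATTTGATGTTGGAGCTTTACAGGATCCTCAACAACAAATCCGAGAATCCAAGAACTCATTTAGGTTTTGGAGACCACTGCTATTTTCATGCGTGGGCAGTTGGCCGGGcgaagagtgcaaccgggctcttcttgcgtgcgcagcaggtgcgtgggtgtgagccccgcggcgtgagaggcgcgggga
Duxf3: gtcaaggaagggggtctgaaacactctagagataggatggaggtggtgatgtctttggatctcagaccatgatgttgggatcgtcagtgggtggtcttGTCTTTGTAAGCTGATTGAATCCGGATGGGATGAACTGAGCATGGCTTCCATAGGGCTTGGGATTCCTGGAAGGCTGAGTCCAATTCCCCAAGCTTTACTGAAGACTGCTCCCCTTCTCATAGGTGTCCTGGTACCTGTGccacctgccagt
The Rhoa stretch (chr9:108306547-108306796, plus strand), upstream of the gene of an actin-regulating GTPase, is 79.6% G and C with 33 CpG dinucleotides. Its high-summit centres lay at -66, -126 and -36 bp from the start site on days 0, 1 and 2, with summit values of 16.003, 16.98 and 16.2. At Irf1 (chr11:53770223-53770472, plus strand), which encodes a transcription factor of the interferon response, the stretch is 74.4% G and C with 35 CpG, and the centres lay at -232, -152 and -62 bp, with summit values of 17.2, 19.7 and 15.7. At both genes the 3 centres lay farther apart than the 20 bp that counts as recurring below. At Csnk1g2 (chr10:80629406-80629655, plus strand), a casein kinase gene, the stretch is 57.2% G and C with 5 CpG, and the centres lay at -225, 25 and -65 bp, with summit values of 16.4, 15.4 and 16.3. At Slc16a11 (chr11:70213660-70213909, plus strand), a monocarboxylate transporter gene, the stretch is 54.8% G and C with 14 CpG, and the highest of its 3 positions was on day 2, with a summit value of 17.2. The Duxf3 stretch (chr10:58233090-58233339, minus strand) belongs to a double homeobox gene. It is 51.2% G and C with 2 CpG, and its summit values were 21.3, 16.4 and 16.7. In these 5 windows the high summits of the 3 days lay at different centres, in stretches both rich and poor in CpG. Nowhere on the autosomes did high-summit positions of all 3 days lie within 20 bp, so differing centres were given beforehand.

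All listed positions are 140 bp wide, and their autosomal summit values had medians of 7.62, 6.80 and 6.26 on days 0, 1 and 2. The high-summit positions had medians of 16.01, 16.5 and 16.1 and maxima of 32.0, 29.2 and 32.4. Summit values of 20 or more were reached by 2725, 2622 and 1757 of them, and values of 25 or more by 95, 75 and 209. Most positions just passed the threshold. The commonest value just inside it was 15.2 on day 0 (20190 positions), 15.2 on day 1 (2242) and 15.01 on day 2 (5564), and the commonest just outside it was 14.5 (19846 positions), 14.9 (3102) and 14.4 (6307). In each library nearly all summit values are whole multiples of a single step, 0.762, 0.324 and 0.626, so the threshold took 20, 47 and 24 steps. Off these steps, by more than 0.02 of a step, lay 1.41%, 2.53% and 1.26% of all listed values, but 18.9%, 79.6% and 37.2% of those of the high-summit positions. With read totals not given in the sources used here, this same threshold may stand for a different number of reads on each day.

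High-summit positions lay mainly in the gene-rich part of the genome. The autosomes were cut into 24048 bins of 100 kb and graded by the number of protein-coding genes in the surrounding 1 Mb. The 4399 bins with 15 to 71 genes held 72.3%, 64.4% and 53.6% of the high-summit positions on days 0, 1 and 2, against 35.3%, 39.2% and 29.5% of all listed positions. The 5679 bins with 0 to 1 gene held 0.204%, 0.750% and 1.04% of them, against 5.90%, 4.60% and 11.3% of all listed positions. In the gene-poorest bins high-summit positions were therefore scarcer than listed positions in general on all 3 days. At least 1 high-summit position was found in 31.1%, 28.0% and 22.8% of bins, and the 240 bins with the most of them held 22.3%, 26.7% and 31.7%. The 240 bins with the most listed positions held 3.23%, 4.17% and 2.64% of the listed positions.

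**Figure D1:**
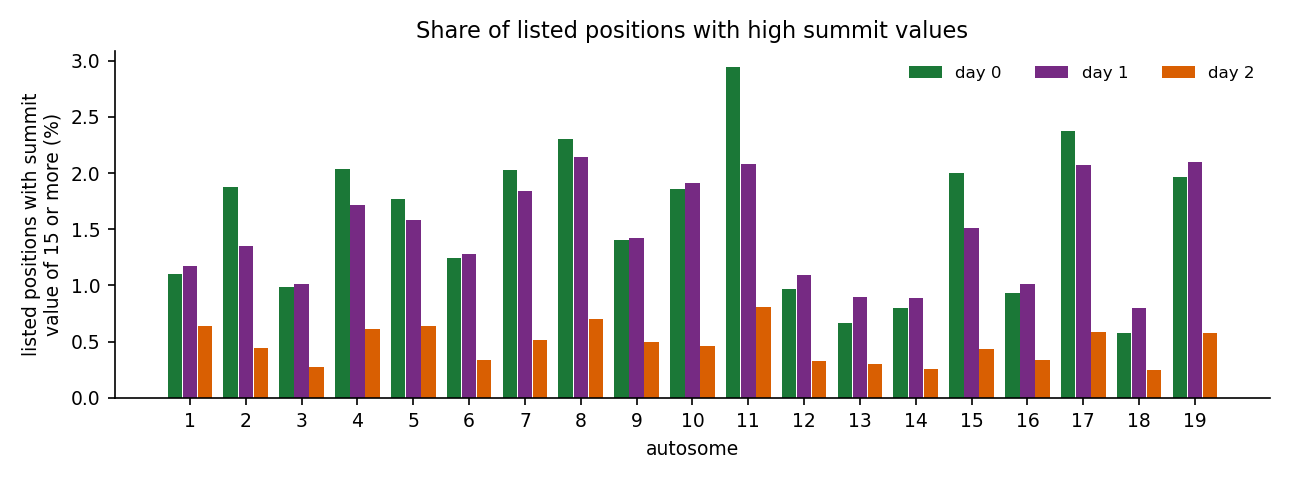
Share of listed positions that were high-summit positions (y axis, percent) on each of the 19 autosomes (x axis), with 1 bar per library and day. Chromosome 11 stands highest on day 0 at 2.94% and on day 2 at 0.812%, and chromosome 18 lowest on every day. Without dense blocks chromosomes 8 and 11 are level on day 2, at 0.658% each.

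The share of listed positions with a high summit differed several fold between autosomes. On day 0 it was 2.94% on chromosome 11, which carried 13.7% of the high-summit positions and 7.70% of the listed ones, followed by 2.38% on chromosome 17 and 2.31% on chromosome 8. On day 1 chromosome 8 (2.15%) and chromosome 19 (2.09%) came first, next to 2.08% on chromosomes 11 and 17. On day 2 chromosome 11 (0.812%) and chromosome 8 (0.699%) came first. Without dense blocks, which are defined below, chromosome 19 (2.05%) came first on day 1, with chromosome 8 at 1.90%, and on day 2 chromosomes 8 and 11 were level at 0.658%. Chromosome 18 was lowest with 0.581%, 0.795% and 0.244%. On every autosome the day 2 share was below that of both other days.

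High-summit positions lay less often outside genes and more often at gene ends than listed positions in general. On days 0, 1 and 2, 32.7%, 26.8% and 38.4% of them lay outside protein-coding genes, against 45.3%, 43.1% and 49.3% of all listed positions, and their share outside genes was the smaller of the pair on 19, 19 and 17 of the 19 autosomes. Within 500 bp of either end of a protein-coding gene lay 6.93%, 18.4% and 9.68% of them, with intervals of 6.73 to 7.13%, 18.03 to 18.8% and 9.29 to 10.1%. Of all listed positions 2.87%, 3.56% and 2.67% lay there. The ratio of the 2 shares was 2.48 ± 0.41, 5.66 ± 1.43 and 3.93 ± 0.95 in the same order (SD between 19 autosomes, a spread within a library), and above 1 on each of the 19 autosomes on every day. Day 1 thus had the largest excess of high-summit positions at gene ends. Most high-summit positions still lay elsewhere, with 37986, 25527 and 11585 inside genes and farther from the ends. Among the positions with summit values of 20 or more, the day 2 shares were 52.1% outside genes, above that of all listed positions, and 4.61% at gene ends.

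**Figure D2:**
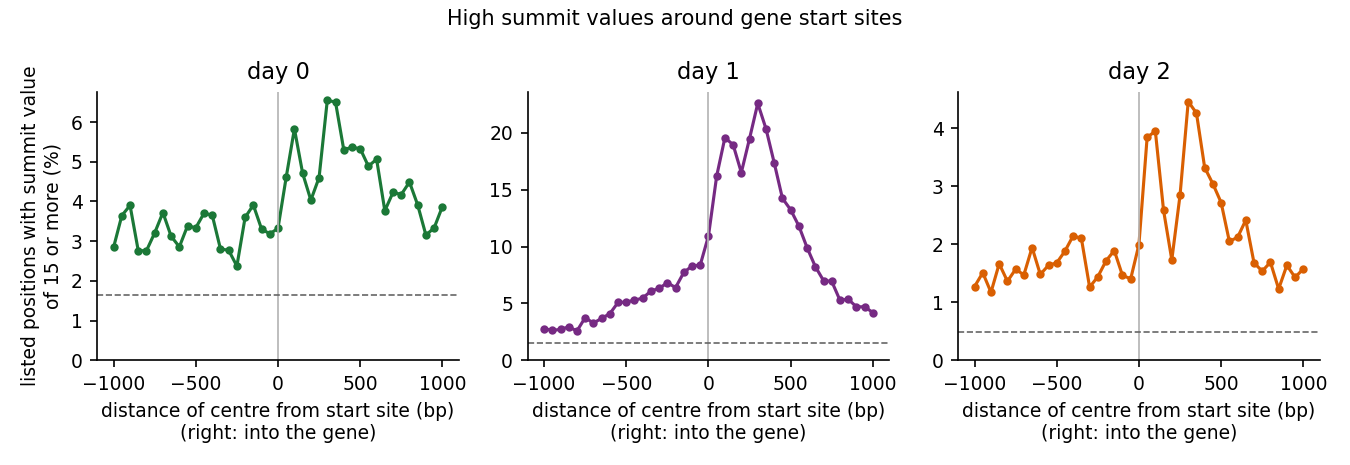
Share of listed positions that were high-summit positions (y axis, percent, scaled separately per day) by the distance of their centre from RefSeq start sites in steps of 50 bp (x axis, positive into the gene), with the share over all autosomal positions dashed. Each day has maxima near 100 and 300 bp inside the gene, and day 1 reaches 22.6%.

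Strand was known for 20063 start sites of 16438 genes, 79.95% of the 20560 protein-coding autosomal genes used. There the share of listed positions with a high summit was larger on the transcribed side. Of the listed positions centred 300 bp downstream of a start site, the share with a high summit was 6.55% on day 0 (263 of 4017), 22.6% on day 1 (1085 of 4806) and 4.46% on day 2 (207 of 4645), the maximum of each profile. Another maximum stood 100 bp downstream, with 5.83%, 19.6% and 3.94%. Over the stretch from 50 to 500 bp downstream the shares were 5.38%, 18.1% and 3.35%, and over the same stretch upstream 3.29%, 6.51% and 1.72%. At 1000 bp upstream they were 2.85%, 2.79% and 1.27%, so on day 1 the profile stood 8.08 times as high at its maximum as there. The places of both maxima were the same on the 3 days to the step of 50 bp.

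Start-site windows with a high-summit position were rich in G and C, most of all on day 1. Of the 20063 windows, 468 held one on day 0, 1124 on day 1 and 315 on day 2, which is 2.33%, 5.60% and 1.57%. The windows that did had a median G and C content of 62.0%, 72.3% and 65.0%, against 58.7%, 59.0% and 58.7% in windows with a listed position and no high summit, and 57.0% in all windows. Their median CpG number was 16, 35 and 24 per 300 bp, against 14 in all windows. On the 140 bp of single positions that lay whole in a window, the day 1 median was 75.7% G and C with 18 CpG over 614 high-summit positions and 60.7% with 7 CpG over all 7650 positions. On day 0 the medians were 60.0% with 5.5 CpG over 252 and 57.9% with 5 over 7137 positions, and on day 2 they were 64.3% with 9 over 140 and 58.6% with 6 over 8675 positions. The steps AA, TT and TA numbered a median of 15, 6 and 13 in the high-summit positions and 17, 14 and 16 in all. On day 1 the composition therefore stood well apart from that of all listed positions, and on day 0 it stood close to it. Positions with summit values of 10 to 15, below the threshold, had medians of 60.0% with 6 CpG, 66.4% with 10 and 62.9% with 8 on days 0, 1 and 2. On days 0 and 2 the G and C content was thus not particular to high-summit positions, and on day 1 this class lay between them and all listed positions. Windows with a high-summit position on any day numbered 1731, those with one on 2 days 164 and those with one on all 3 days 6. Sequence outside these windows was not analysed here.

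High-summit positions came in groups. With positions less than 10 kb apart joined, they formed 15762 groups on day 0, 11915 on day 1 and 9774 on day 2, and 14.1%, 11.3% and 29.2% of them stood alone. Groups of 5 or more held 65.6%, 60.5% and 36.6%. Joining at a fixed 10 kb depends on the number of positions, which was lowest on day 2, so these shares do not compare grouping between days. The group with the most members on day 0 lay at chr10:80031516-80738193, a stretch of 38 protein-coding genes with Polr2e, Gpx4, Sbno2 and Stk11 among them, and held 679, 534 and 105 high-summit positions on days 0, 1 and 2 of 3686, 3820 and 3538 listed ones. A neighbouring group at chr10:80984631-81628711, which holds Zbtb7a and Eef2, had 510, 526 and 93. Groups at chr11:115731531-116400213 (431, 171 and 42), chr8:70479681-70900491 (333, 262 and 76) and chr11:120333151-120796371 (312, 223 and 48) came next on day 0. All 5 are gene-dense stretches, and in each the number of high-summit positions was lowest on day 2, as it was over all autosomes. On day 1 the largest groups of this kind were chr10:79671901-80199831 (441, 528 and 82), chr19:5622791-5993411 around Rela and Map3k11 (195, 292 and 58) and chr10:81237921-81440071 (207, 254 and 42).

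Single genes showed the same. Gse1 on chromosome 8 (120228501 to 120581383) had 195 high-summit positions of 1789 listed on day 0, 155 of 1900 on day 1 and 40 of 1681 on day 2. Prex1, an exchange factor for Rac GTPases, had 60, 31 and 13, and Rptor, the raptor subunit of the mTORC1 kinase complex, had 59, 15 and 8. Nfix, a transcription factor of the nuclear factor I family, had 52, 28 and 5, and Nol4l had 49, 33 and 13. As shares of listed positions these were 8.37%, 3.88% and 1.91% in Prex1 and 4.63%, 1.22% and 0.683% in Rptor. Nfix had 11.5%, 5.79% and 1.11%, and Nol4l 7.89%, 5.16% and 2.03%. In these 5 genes day 0 had the most and day 2 the fewest. The order was the same over all listed positions (1.65%, 1.51% and 0.489%). All 5 were named for being among the genes with the most on day 0, so it follows in part from the choice. Gse1 was among those of days 1 and 2 as well. Sbno2 had 53, 62 and 11 and peaked on day 1. Other genes, each named for being among those with the most on day 1 or day 2, ran the other way. Of these, Sp140 and Mroh2a were among those of day 0 too. Sfi1, which encodes a centrosomal protein, had 0 of 394 on day 0, which allows a share of up to 0.761%, then 345 of 420 (82.1%) on day 1 and 395 of 413 (95.6%) on day 2. Sp140, a nuclear body protein of the Sp100 family, had 56, 72 and 165, and Mroh2a had 61, 76 and 117. Hjurp, the chaperone of the centromeric histone CENP-A, had 29, 51 and 68, and the zinc finger gene Zfp978 had 12, 50 and 114. Tmem267 had 9, 78 and 63, and Ugt1a9, a glucuronosyltransferase gene, had 11, 11 and 28. Mroh2a and Hjurp overlap, as does Ugt1a9 with other genes of its family, so some positions count for more than 1 gene.

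In the genes with the most on a later day, Sbno2 and Zfp978 excepted, at least 74.6% of the day 2 high-summit positions lay in short, densely filled stretches. Groups of at least 20 high-summit positions at 1.5 or more per kb, a definition made after the values were seen, numbered 7, 24 and 20 on days 0, 1 and 2. They held 676 (1.11%), 2168 (4.84%) and 2917 (13.6%) of the high-summit positions, and inside them 43.6%, 58.6% and 50.8% of all listed positions had a high summit. Joined over days they were 37 blocks of 1571 kb in all, of which 24 were dense on 1 day, 12 on 2 days and 1 on all 3 days, and 12 held no protein-coding gene. The block dense on all 3 days was that of Duxf3 at chr10:58220851-58239631, with 40 of 97, 34 of 84 and 59 of 101 listed positions. The block of Sfi1 at chr11:3100301-3203101 held 3 of 456, 387 of 516 and 449 of 530. A block without any gene at chr9:2999931-3038371 held 0 of 203, which allows up to 1.48%, then 193 of 197 and 228 of 230. Both had almost no high summit on day 0 and a high summit at most listed positions on day 2.

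Other blocks followed other orders. The block with the 5S ribosomal RNA genes (48 of them in the day 1 group) at chr8:123529851-123624486 held 209 of 514 on day 0, 335 of 526 on day 1 and 2 of 477 on day 2. A block with transfer RNA genes at chr1:171049251-171085551 held 62 of 192, 113 of 195 and 13 of 191, and the block with the 18S ribosomal RNA sequence Rn18s-rs5 at chr17:39843031-39848751 held 0 of 13, 30 of 30 and 11 of 33. All 3 were highest on day 1, as were the block of the small RNA gene Rn4.5s at chr6:47649226-47686951 (125 of 226, 182 of 213 and 27 of 226) and that of the Y RNA genes Rny3 and Rny1 at chr6:47737051-47795851 (144 of 314, 194 of 307 and 23 of 299). The block of Sp110, Sp140 and Sp100 at chr1:85565491-85658383 held 62 of 444, 90 of 452 and 204 of 478. The block of Speer4e at chr5:14900581-15062361 held 88 of 637, 121 of 642 and 335 of 759, and another Speer4 block at chr5:15575311-15714341 held 61 of 556, 103 of 566 and 259 of 655. The block from Ugt1a10 to Trpm8 at chr1:88211511-88310891 held 121 of 542, 155 of 547 and 297 of 571. At Cdkn1a, the cell cycle inhibitor p21, a block at chr17:29083261-29109021 held 23 of 128, 48 of 133 and 8 of 133. The assembled sequence of mouse chromosomes begins near 3 Mb, and below 3.3 Mb lay 0.0164%, 1.87% and 4.07% of the high-summit positions, against 0.104%, 0.179% and 0.205% of the listed ones. Many of these genes have near-identical copies, between which reads cannot be assigned with certainty, so the values there are uncertain, and the part of repeated sequence in them was not tested.

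The highest positions of day 0 had values below the threshold nearby on the other days, and several of those of days 1 and 2 lay near high values of each other's day. On day 0 the highest, with a summit value of 32.0, lay in Prkrip1 (centre chr5:136183751), and the nearest centres of days 1 and 2 were 85 bp away with 4.21 and 10.0. Next came Nlrx1, a mitochondrial receptor of the NOD-like family (chr9:44265081, 29.9), and Npas1, a basic helix-loop-helix transcription factor (chr7:16463711, 29.0). A position 142811 bp from the nearest protein-coding gene (chr8:12134121, 28.6) and Llgl2, a cell polarity gene (chr11:115855361, 28.6), followed. Around these 5 the nearest centres of the other days, 2 to 180 bp away, had summit values between 4.21 and 11.98. The medians of all listed positions were 6.80 on day 1 and 6.26 on day 2, so most of these values were above them. On day 1 the highest were chr2:98667131, 1035459 bp from the nearest protein-coding gene (29.2), chr17:4626321 in the long non-coding RNA Gm34259 (29.2), Chl1, a neural adhesion molecule (chr6:103649191, 28.4), chr9:35305431 (27.9) and chr9:3024491 (27.8). For 4 of these 5, the exception being Gm34259 with 5.63, the nearest day 2 centre was within 100 bp and had a summit value between 21.7 and 29.6, while on day 0 the nearest values were 5.67 to 8.39 for all 5. On day 2 the highest were chr7:145341361 (32.4), chr14:124802171 (31.8), chr2:98666941 (31.7), chr18:90602581 (31.7) and chr5:15021381 near Gm17019 (31.6). In that order the nearest day 1 centres, 20 to 70 bp away, had summit values of 19.7, 15.7, 26.6, 18.6 and 7.77, and the nearest day 0 centres, 40 to 80 bp away, had 14.2, 14.2, 7.499, 15.1 and 7.62. The chromosome 2 positions of days 1 and 2 were less than 1000 bp apart. Among the 5 of day 2 only the chromosome 5 position lay in a dense block, and among those of day 1 only chr9:3024491. The part of repeated sequence at these positions was not tested.

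Of the 20560 protein-coding genes, 46.7% held at least 1 high-summit position within 500 bp of the gene on day 0, 43.2% on day 1 and 29.6% on day 2. Among the 8566 genes of 10 to 50 kb these shares were 53.9%, 47.5% and 34.4%. Erythroid transcription factors stood above both, with 18, 18 and 17 of 19 genes, at a median gene length of 23.8 kb against 17.6 kb for all genes. Zfpm1, the cofactor of Gata1, had 17, 23 and 6, and Runx1, a factor of blood cell formation, had 12, 26 and 7. In the list as a whole 2.76, 3.99 and 1.30 of 100 listed positions had a high summit, against 2.08, 2.02 and 0.635 over all genes. Nuclear condensation and enucleation genes held one in 21, 17 and 16 of 27, at a median length of 27.6 kb. Of 100 listed positions in them 4.15, 4.04 and 1.09 had a high summit, on days 0 and 1 more than in the erythroid factors. Lmnb2 (19, 20 and 5) and Lmna (21, 14 and 6), genes of the nuclear lamina, had the most. Cell cycle genes held one in 17, 22 and 17 of 32, with Ccnd3, the D-type cyclin of erythroid cells, at 21, 23 and 14 and Cdkn1a at 7, 8 and 2. Red cell membrane genes held one in 16, 14 and 12 of 24, with the blood group protein gene Rhd at 14, 7 and 4 and the membrane skeleton gene Epb41 at 11, 4 and 5. They are long, with a median of 32.4 kb. Of 100 listed positions in them 2.03, 1.31 and 0.695 had a high summit, below all genes on days 0 and 1 and above on day 2. These are counts of these libraries, beside the shares of all genes given above.

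Globin and heme genes held a high-summit position in 7, 8 and 5 of 18 genes (38.9%, 44.4% and 27.8%), close to the shares of all genes, at a median length of 4.34 kb. Of 100 listed positions in them 3.37, 4.19 and 1.69 had a high summit, above the values over all genes on each day. Slc25a38, a mitochondrial glycine carrier, had 9, 7 and 4. The transporter Abcb10 had 4, 7 and 0, and Ppox, an enzyme near the end of heme synthesis, 2, 4 and 3. Further enzymes of that pathway followed with Cpox at 0, 4 and 1, Fech at 1, 1 and 3, Uros at 1, 3 and 0, Alad at 2, 1 and 0 and Urod at 0, 0 and 1. The 8 globin genes of the list (the Hba and Hbb genes) had none on any day, and they are short, with 2 to 15 listed positions each. Genes of other cell types of the fetal liver were counted as well. Macrophage markers held a high-summit position in 5, 4 and 6 of 15 genes, below the share of all genes on days 0 and 1 and above it on day 2, and 2.52, 1.64 and 1.13 of 100 listed positions in them had a high summit. Among them were Spi1, a myeloid transcription factor also made in early erythroid cells (13, 11 and 4), Itgam (5, 3 and 3), Csf1r (2, 1 and 5), Cd68 (4, 1 and 1), C1qc (1, 0 and 0), Lyz2 (0, 0 and 1) and Vcam1 (0, 0 and 1). Hepatocyte markers held one in 5, 2 and 2 of 14 genes, below the share of all genes on all 3 days, at a median length of 10.2 kb. Per 100 listed positions they had 2.39, 0.723 and 0.337, above all genes on day 0 and below on days 1 and 2. They were Apoa2 (6, 2 and 1), Hnf4a (5, 0 and 1), Trf (1, 1 and 0), Afp (1, 0 and 0) and Apoa1 (1, 0 and 0).

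Most high-summit positions had no listed centre of another day at the same place. A listed centre of either other day lay within 20 bp of 45.0% of the day 0 high-summit positions (27417), 36.4% of those of day 1 (16317) and 46.1% of those of day 2 (9867). For all listed positions these shares were 26.4%, 31.6% and 23.2%. High-summit positions lie in densely listed regions, so the same share was taken after moving them by 1000 bp, which gave 33.4%, 33.3% and 33.6% for them and 20.7%, 24.3% and 17.9% for all listed positions. The excess over the moved positions was 11.7, 3.06 and 12.5 percentage points for high-summit positions and 5.71, 7.24 and 5.30 for all. In percentage points, days 0 and 2 thus had more than the listed positions in general, and day 1 had less. Day 0 positions with summit values of 12 to 15, below the threshold, recurred on day 1 in 23.4% (16.6% after the move). Those of 15 to 17 recurred there in 25.9% (18.7%). Day 2 positions of 12 to 15 recurred on day 0 in 25.7% (17.1%), and those of 15 to 17 in 26.2% (17.8%). On days 0 and 2 the excess was therefore not particular to high-summit positions. With a threshold of 20, the day 1 share was 19.7%, below that of all listed positions.

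**Figure D3:**
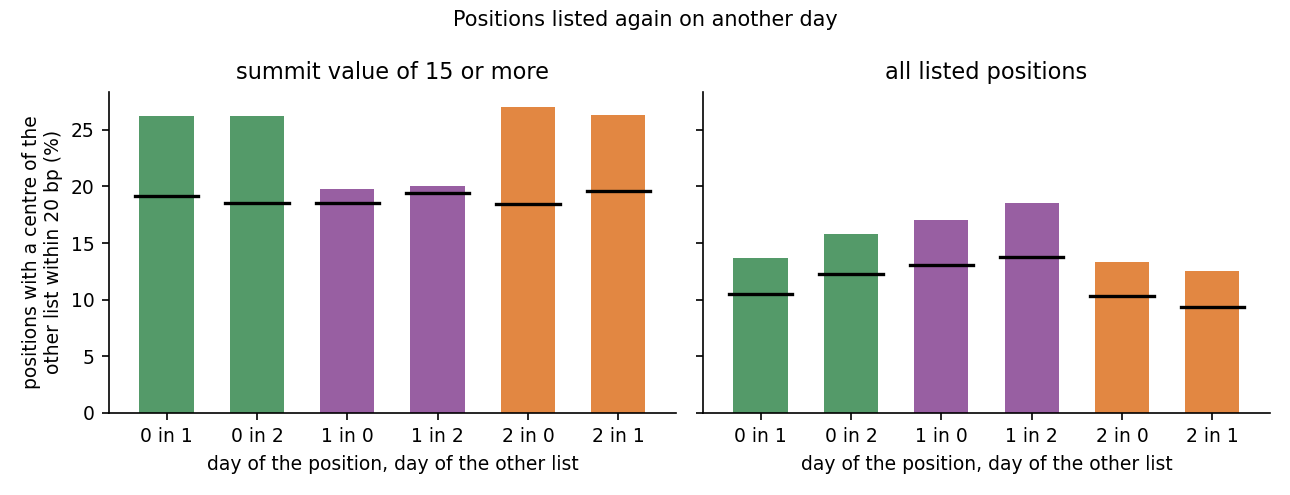
Share of positions with a centre of another day's list within 20 bp (y axis, percent) for high-summit positions (left) and all listed positions (right), by day of the position and day of the other list (x axis). Black lines give the share after moving the positions by 1000 bp. The day 1 bars on the left, 19.8% and 20.04%, nearly meet their lines.

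Taken against single days, 26.3% of the day 0 positions recurred on day 1 and 26.2% on day 2, with 19.2% and 18.5% after the move. Of the day 2 positions 26.996% recurred on day 0 and 26.3% on day 1, with 18.4% and 19.6% after the move. Of the day 1 positions 19.8% recurred on day 0 (18.5% after the move) and 20.04% on day 2 (19.5%). Listed on both other days were 7.45%, 3.403% and 7.22%, with 4.37%, 4.65% and 4.38% after the move. Of all listed positions 3.14%, 3.94% and 2.66% were listed on both other days. Days 0 and 2 thus lay above both of these shares and day 1 below both. The centres that matched were mostly of ordinary height, with median summit values from 8.34 to 9.39. A high-summit position of both days within 20 bp was found 305 times for days 0 and 1, 491 times for days 0 and 2 and 233 times for days 1 and 2. For day 0 positions that is 0.501% on day 1, against 1.19% after the move, and 0.806% on day 2, against 0.506%. High summits of days 0 and 2 thus met within 20 bp more often than after the move, and those of days 0 and 1 less often. None was a high-summit position on all 3 days within 20 bp, which allows up to 0.00493% of the day 0 positions. Only 0.501% and 0.806% of them met one of a single other day, so few such triples could occur. Their number after the move was not taken, so the count of 0 was not set against it. On the scale of 10 kb they did share places, since 68.0% and 55.5% of the day 0 positions had a high-summit position of day 1 and of day 2 within that distance, against 26.7% and 20.7% of all listed positions.

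The day 1 shares differed by height. Day 1 positions with summit values of 12 to 15, below the threshold, recurred on day 0 in 25.6% of cases (18.5% after the move). Those of 15 to 17 recurred in 22.2% (interval 21.7 to 22.7%, 18.8% after the move), those of 17 to 20 in 16.8% (16.2 to 17.4%, 18.4%) and those of 20 to 25 in 10.6% (9.39 to 11.8%, 16.8%). Against day 2 the same classes gave 26.9%, 22.8%, 16.6% and 10.2%. From 17 to 25 the day 1 positions had fewer centres of the other days within 20 bp than places 1000 bp away. On day 0 the classes of 15 to 17, 17 to 20 and 20 to 25 recurred on day 1 in 25.9%, 27.3% and 25.9%, and on day 2 the same classes recurred on day 0 in 26.2%, 29.6% and 27.7%. Day 2 positions of these classes recurred on day 1 in 27.3%, 25.9% and 19.4%, the last below the 21.1% after the move, and those of 25 or more in 13.9% (interval 9.49 to 19.3%, 21.3% after the move). High positions of day 2 thus also met fewer day 1 centres. Within 500 bp of gene ends 31.2% of the day 2 positions recurred on day 0 and 30.8% of the day 0 positions on day 2, and 21.2% of the day 1 positions on day 0.

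**Figure D4:**
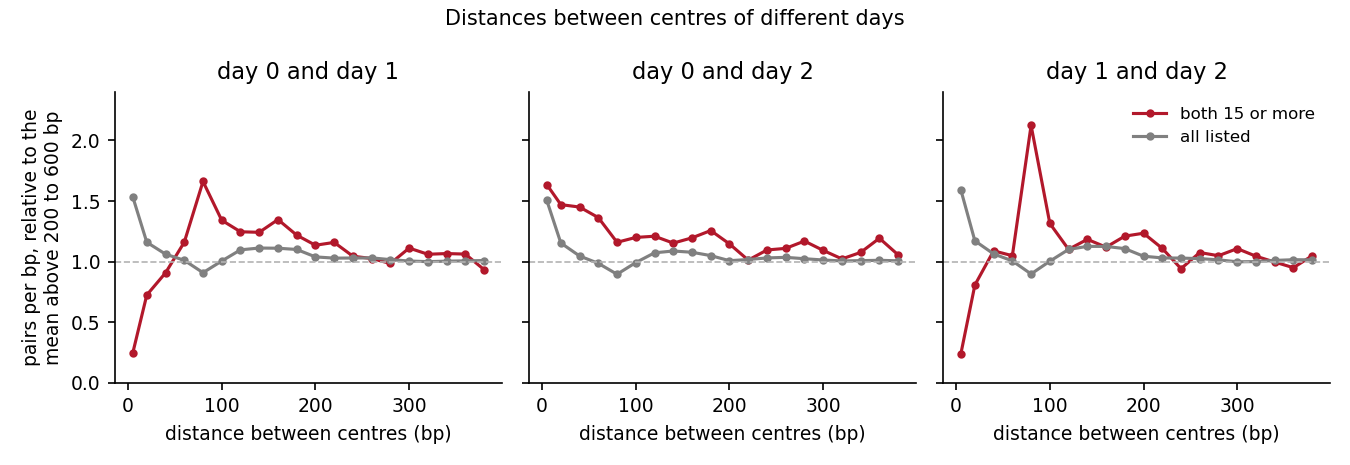
Pairs of centres of different days per bp of distance, relative to the mean from above 200 to 600 bp (y axis), by the distance between them (x axis, first point 0 to 10 bp, then steps of 20 bp), for pairs with both summit values at 15 or more and for all listed positions. With day 1 the high-summit pairs dip to 0.245 and 0.238 at the first point and peak near 80 bp.

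The distances between high-summit centres of different days were distributed otherwise for pairs with day 1. Within 10 bp the density of pairs, relative to that from above 200 to 600 bp, was 1.64 for days 0 and 2 (257 pairs), but 0.245 for days 0 and 1 (88 pairs) and 0.238 for days 1 and 2 (62 pairs). From 71 to 90 bp it was 1.66 for days 0 and 1, 2.12 for days 1 and 2 and 1.16 for days 0 and 2. A distance of 71 to 90 bp is about that from the centre of a listed position to its edge. For all listed positions the density within 10 bp was 1.54, 1.51 and 1.59 for days 0 and 1, 0 and 2, and 1 and 2, and for pairs with both summit values from 12 to 15 it was 2.01, 2.27 and 2.47. High-summit pairs with day 1 were therefore scarcer within 10 bp than from above 200 to 600 bp, while pairs just below the threshold were denser there. Outside dense blocks the high-summit values were 0.266, 1.72 and 0.223. In groups of fewer than 5 they were 0.677, 3.39 and 0.573, more than 1.5 times the values over all high-summit positions.

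The share of summit values off the whole steps rose with height on each day, and recurrence was higher off the steps than on them. On day 1 the share off the steps was 27.2% in the class of 12 to 15, 71.6% from 15 to 17, 91.8% from 17 to 20 and 96.3% from 20 to 25. On day 0 it was 6.99%, 14.1%, 28.5% and 47.5% in the same classes, and on day 2 it was 17.7%, 24.9%, 62.3% and 83.5%. The day 1 high-summit positions off a step, 35677 in number, recurred on day 0 in 21.4% (18.7% after the move). The 9141 on a step recurred in 13.3% (17.8% after the move). On days 0 and 2 positions off a step also recurred more often than those on one, on day 0 in 35.9% against 24.01% on day 1, and on day 2 in 31.5% against 24.3% on day 0. Positions off a step lay more often at gene ends, with 13.3%, 20.1% and 13.2% on days 0, 1 and 2 against 5.44%, 11.9% and 7.58%. How the authors' scaling made values off the steps remains not given in the sources used here. These lists carry the marks Qnor, ajClonal and smooth, which no label explains, and the part of such processing in the day 1 pattern was not tested.

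**Figure D5:**
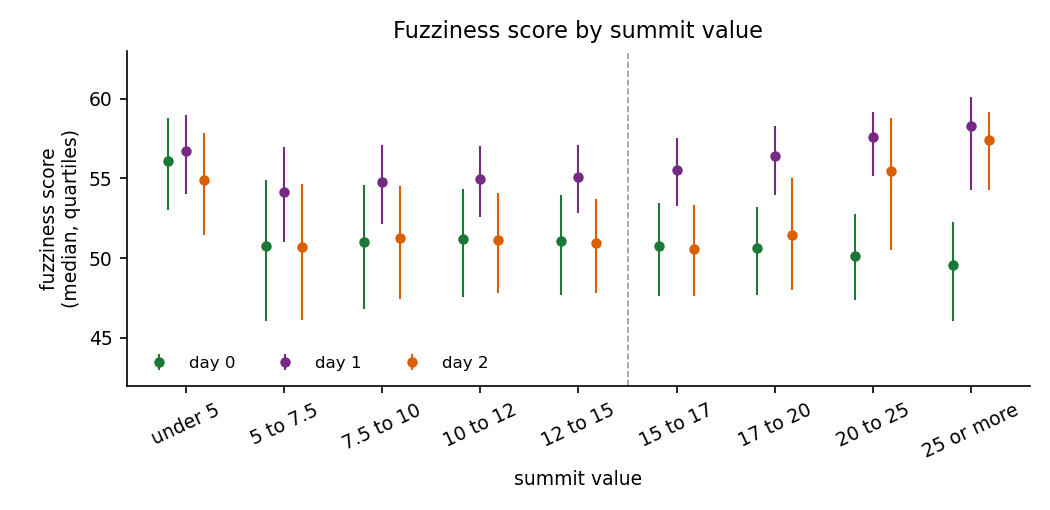
Median fuzziness score with quartiles (y axis, unit not given by the authors) by class of summit value (x axis) for the 3 libraries, with the threshold of 15 dashed. Day 1 climbs from 54.2 in the class of 5 to 7.5 to 58.3 at 25 or more, and day 2 from 50.6 at 15 to 17 to 57.4 at 25 or more.

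High-summit positions had a narrower range of fuzziness scores than listed positions in general, and a middle that differed by day. The score comes from the same reads as the summit value, so this is a description. On day 0 their median was 50.7 (quartiles 47.6 to 53.4) against 51.1 (46.7 to 54.8) for all listed positions. On day 1 it was 55.9 (53.5 to 57.9) against 54.5 (51.6 to 57.1), and on day 2 it was 51.0 (47.8 to 54.1) against 51.1 (46.8 to 54.7). Positions with summit values of 12 to 15, below the threshold, had quartiles of 47.7 to 54.0, 52.8 to 57.1 and 47.8 to 53.7 on days 0, 1 and 2. The narrower range was therefore not particular to high-summit positions. The median of the high-summit positions was the higher one on all 19 autosomes on day 1, but on 3 on day 0 and on 4 on day 2. Sharp positions with scores under 40 were rare among them, at 1.71%, 0.127% and 1.71% against 5.76%, 0.407% and 5.46%. Diffuse positions with scores of 58 or more made up 2.14% on day 0, 24.2% on day 1 and 7.65% on day 2, against 9.21%, 17.4% and 8.80%. On days 0 and 2 both tails were thinner, and on day 1 the diffuse tail was thicker.

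The dense blocks held the most diffuse high-summit positions. Their medians there were 56.7, 59.2 and 57.3 on days 0, 1 and 2, against 50.6, 55.8 and 50.4 outside. Groups of 5 or more had 51.4, 56.6 and 53.6, and smaller groups and single positions 49.2, 54.9 and 49.8. By height, the day 0 median went from 50.7 at 15 to 17 to 49.6 at 25 or more, that of day 1 from 55.5 to 58.3, and that of day 2 from 50.6 to 57.4. The highest positions were thus somewhat sharper than the rest on day 0 and more diffuse on days 1 and 2. Positions that recurred on either other day had medians of 50.5, 55.6 and 50.5, and the others 50.8, 56.1 and 51.4, so recurring ones had the lower score on each day, by less than 1.

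High-summit positions had more listed neighbours, with higher summit values, than listed positions in general. Within 1000 bp they had a median of 8, 9 and 9 other listed positions on days 0, 1 and 2, against 5, 6 and 5 for all listed positions, and the nearest centre lay 158, 140 and 155 bp away, against 195, 175 and 200 bp. Their neighbours had a median of 9.72, 10.7 and 8.92 for the mean summit value, against 7.62, 7.23 and 6.57. Another high-summit position lay within 1000 bp of 47.3%, 68.1% and 39.3% of them, and of 9.92%, 7.63% and 3.03% of all listed positions. Almost none lacked a listed neighbour within 1000 bp, at 0.0164%, 0.216% and 0.0514%, against 4.68%, 6.37% and 3.96%. Outside dense blocks the share with another high-summit position nearby was 46.8%, 66.6% and 30.0%. Their own value was a median of 1.70, 1.56 and 1.81 times the mean of their neighbours.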

How the data were processed

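Nucleosome positions were listed for 3 libraries of micrococcal nuclease sequencing, 1 per culture day. Bowtie2, bedtools and the build mm10 are named per the submitters' processing notes, without versions. Position caller, settings and read numbers remain not given in the sources used here. A summit value is a coverage signal that the authors scaled, per the file headers and the values. The fuzziness score was deposited by the authors with no unit. Each position also has a p-value for summit and fuzziness deposited by the authors, which was not used.

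Autosomal positions whose summit value was 15 or more were kept, and everything else was counted beside all autosomal positions of the same list. The high-summit positions and the gene lists were chosen with earlier results of these data known. Genes came from a RefSeq table of GRCm38.p6 without strand, leaving out genes with coordinates below 3 Mb, and start sites, strand and bases from the RefSeq table of start-site windows. The bases of a position were taken as its deposited start plus 1 to its end. A position recurred when a centre of the other list lay within 20 bp, beside the mean share after moves of 1000 bp in both directions. Shares have exact Clopper-Pearson 95% intervals. Since 1 library per day gives no replicate error, no test was made.

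Named positions are the 5 highest per day, at most 1 per 10 kb. Named genes are the 8 with the most high-summit positions per day without predicted models and genes that share most of these positions with one already taken, and per list the 2 with the most over all days and each gene with one in lists of 10 or fewer such genes, apart from a gene that is not reported here. Named groups are the 5 largest per day. Dense blocks named in the text were chosen after their values were seen. The planned base composition of all positions needs a genome of mm10 and was run in start-site windows alone. Alternatives were other thresholds, distances and windows, and leaving out groups, dense blocks or single autosomes. The distance counts were tested on simulated data. Python 3.11.15 with numpy 2.4.6, pandas 2.3.3, scipy 1.17.1 and matplotlib 3.10.9 was used.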

Additional observations from a re-analysis of the deposited data

Results flagged for a closer look

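Positions at or above the threshold of 15 also lay outside the autosomes, in lists that no comparison above used. On chromosome X they numbered 194 of 45232 listed on day 0 (0.429%), 351 of 30972 on day 1 (1.13%) and 190 of 88409 on day 2 (0.215%). On chromosome Y they numbered 135 of 1127 (11.98%, exact Clopper-Pearson 95% interval 10.1 to 14.02%), 317 of 975 (32.5%, 29.6 to 35.6%) and 172 of 3396 (5.06%, 4.35 to 5.86%). On both chromosomes day 1 had the highest share. On the mitochondrial chromosome 16 of 89 listed positions reached the threshold on day 2 (17.98%, 10.6 to 27.5%), and none of 16 on day 0 or of 5 on day 1, which allows up to 18.8% and 60.0%. These counts were marked because no control sample exists and each lies above the limit that a count of 0 allows.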

How the results depend on the processing

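The numbers of positions, their location, recurrence, fuzziness, neighbours, genes and pair densities were computed again under other settings, and values stand in the order of days 0, 1 and 2. The other results were not recomputed in this way. At a threshold of 12 there were 277470, 153868 and 99698 positions on days 0, 1 and 2, with 35.1, 30.2 and 36.4% outside genes, 5.67, 11.98 and 8.35% at gene ends, 41.5, 42.8 and 45.5% recurring, a fuzziness median of 51.0, 55.3 and 51.0 and 70.96, 62.4 and 59.3% of genes. At a threshold of 20 there were 2725, 2622 and 1757 positions on days 0, 1 and 2, with 31.5, 38.8 and 52.1% outside genes, 8.66, 19.98 and 4.61% at gene ends, 46.2, 19.7 and 41.7% recurring, a fuzziness median of 50.1, 57.6 and 55.8 and 7.26, 5.36 and 1.36% of genes. The top 0.1% of each library gave 4052, 2968 and 4383 positions, 32.1, 38.1 and 45.6% outside genes, 7.82, 20.5 and 9.01% at gene ends, 46.0, 20.05 and 45.6% recurring and a fuzziness of 49.9, 57.6 and 53.1. Without groups of 5 or more the shares were 36.3, 28.1 and 34.7% outside genes, 5.17, 23.0 and 11.0% at gene ends and 41.96, 37.9 and 46.5% recurring, and the fuzziness 49.2, 54.9 and 49.8. Without dense blocks the shares were 32.2, 25.1 and 36.3% outside genes, 6.89, 19.1 and 10.499% at gene ends and 45.1, 36.6 and 46.6% recurring, and the fuzziness 50.6, 55.8 and 50.4. Gene-end shares were 2.51, 6.74 and 3.55% with 200 bp and 13.1, 28.2 and 16.4% with 1000 bp. Recurrence was 28.0, 17.9 and 27.9% at 10 bp and 69.8, 67.1 and 72.9% at 40 bp. Leaving out each autosome, the share outside genes ran from 32.4, 26.3 and 37.0% to 33.1, 27.7 and 39.9%, and that at gene ends from 6.75, 18.3 and 9.46% to 7.01, 18.5 and 9.93%. The neighbours' summit value was 10.3, 12.002 and 9.68 within 500 bp and 9.46, 9.92 and 8.55 within 2000 bp. Genes with a high-summit position were 45.4, 41.9 and 28.2% by the gene body alone and 15.8, 23.6 and 8.96% by the ends alone. The relative density of pairs within 10 bp, for days 0 and 1, 0 and 2, and 1 and 2, was 1.45, 2.18 and 1.45 at a threshold of 12, 0.677, 3.39 and 0.573 without groups of 5 or more and 0.266, 1.72 and 0.223 without dense blocks.

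Of 120 values, 102 differed from the reported one by more than counting error and 18 did not. At a threshold of 20 the day 1 recurrence was 19.7% and the day 2 share outside genes 52.1%, against 36.4% and 38.4% at 15, and the dip of day 1 pairs within 10 bp was not there at 12. Day 1 had the highest gene-end share at each threshold and window here. The cause of these differences was not tested. No paired analysis was possible because there is 1 library per day. The settings without dense blocks and those on pair densities were chosen after seeing the data. Limits are the missing replicates and read numbers, the unknown caller, a threshold on a scaled value and sequence limited to start-site windows.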
